A study of Mus musculus with 18 samples.

Results

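How much DMC1 was recovered for a given amount of H3K4me3 was examined over the autosomal recombination hotspots of Ewsr1 conditional knockout spermatocytes. The members are the 8744 autosomal sites of the deposited DMC1 site list, out of 9132 sites in all, and the remaining 388 lie on the X chromosome. At each site the DMC1 value and the H3K4me3 value of the Ewsr1 CKO were divided, and the log2 of that ratio is called the DMC1 yield. The list names its sites as common to B6, Ewsr1 CKO and Prdm9 heterozygotes, so hotspots seen in fewer of them are not covered. No further choice of sites was made, and no autosomal site had a 0 in either column. The mice were 14 days old, and the Ewsr1 CKO carried a conditional Ewsr1 knockout driven by Stra8-iCre, a recombinase that is switched on in male germ cells as they head into meiosis. The series has 18 samples in 12 groups, and the Ewsr1 CKO DMC1 and Ewsr1 CKO H3K4me3 groups hold 2 samples each. DMC1 of B6 (C57BL/6J) and of Prdm9 heterozygotes (Prdm9+/-) is set beside these values where it helps. The tables give a single value per group and site, so there is no spread between animals for any value below, no p-value was computed, and intervals are across sites or cover read counting only. Whether the DMC1 and H3K4me3 values came from the same animals is not given in the sources used here, and the columns hold no measure of how completely Ewsr1 was removed or of the purity of the cells.

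PRDM9 is a zinc finger protein that binds DNA in meiotic prophase and trimethylates lysines 4 and 36 of histone H3 on the surrounding nucleosomes. SPO11 then cuts the DNA at a small share of the marked sites, the ends are resected, and the recombinase DMC1 coats the single strands. H3K4me3 at a hotspot therefore reports the marking step, and DMC1 ChIP-seq reports the breaks, both how many formed and how long DMC1 stayed on them. EWSR1 is an RNA-binding protein, which the title of the series places between PRDM9-dependent histone methylation and the chromosome axis, the protein core on which the breaks are made. H3K4me3 is also placed by other enzymes at active gene starts, where it marks promoters rather than hotspots. In such bulk chromatin, fewer cells with a mark and less of it per cell cannot be told apart.

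A few hotspots contain an annotated promoter, and these show the range of the yield next to readable sequence. Of the 118 autosomal sites that hold a whole listed promoter, 85 had H3K4me3 at or above the autosomal median of 0.879 RPM. The 3 with the lowest yield and the 2 with the highest are shown by the 250 bases before the gene start, 5′ to 3′ along the gene, from RefSeq on GRCm38.p6, with CpG pairs in capitals. They were picked by their yield, so their values are a description.
Rgs19: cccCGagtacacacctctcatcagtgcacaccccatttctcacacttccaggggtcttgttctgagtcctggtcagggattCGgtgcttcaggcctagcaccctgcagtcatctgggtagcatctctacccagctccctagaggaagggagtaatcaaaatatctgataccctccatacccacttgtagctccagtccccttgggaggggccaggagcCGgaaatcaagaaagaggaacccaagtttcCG
Gm35933: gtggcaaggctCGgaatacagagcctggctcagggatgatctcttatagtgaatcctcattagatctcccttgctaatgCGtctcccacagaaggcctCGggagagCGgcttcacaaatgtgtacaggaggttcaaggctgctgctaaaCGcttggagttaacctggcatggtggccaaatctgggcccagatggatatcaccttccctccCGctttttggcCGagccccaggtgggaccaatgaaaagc
Gm34557: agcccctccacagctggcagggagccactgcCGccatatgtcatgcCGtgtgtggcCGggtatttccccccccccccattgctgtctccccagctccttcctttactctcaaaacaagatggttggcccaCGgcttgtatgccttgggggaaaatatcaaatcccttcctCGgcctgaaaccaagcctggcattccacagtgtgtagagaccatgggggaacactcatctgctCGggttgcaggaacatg
Gm31195: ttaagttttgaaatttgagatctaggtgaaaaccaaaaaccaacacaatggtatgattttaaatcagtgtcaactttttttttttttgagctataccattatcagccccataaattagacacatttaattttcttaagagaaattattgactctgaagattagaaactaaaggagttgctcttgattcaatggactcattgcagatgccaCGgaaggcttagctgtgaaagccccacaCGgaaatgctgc
Gm6602: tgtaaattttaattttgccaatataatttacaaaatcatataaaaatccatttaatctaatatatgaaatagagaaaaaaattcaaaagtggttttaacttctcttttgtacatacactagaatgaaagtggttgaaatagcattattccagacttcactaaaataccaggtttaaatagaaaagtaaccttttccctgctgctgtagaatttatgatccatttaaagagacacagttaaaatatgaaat
The Rgs19 stretch (chr2:181691818-181692067, minus strand) precedes an annotated start of a regulator of G protein signalling, and its hotspot had 4.17 RPM of DMC1 against 2.83 RPM of H3K4me3, a yield of 0.56. At Gm35933 (chr15:76987734-76987983, plus strand) the values were 12.3 and 4.24 RPM (yield 1.53). At Gm34557 (chr13:53935284-53935533, minus strand) they were 18.2 and 5.12 RPM (yield 1.83). The opposite end held Gm31195 (chr1:13846250-13846499, plus strand) with 427 and 2.32 RPM (yield 7.52) and Gm6602 (chr3:111881653-111881902, plus strand) with 307 and 1.24 RPM (yield 7.95). G and C made up 54.4%, 54.0% and 57.2% of the 3 low-yield stretches, and 34.8% and 25.2% of the 2 high-yield ones. The low-yield stretches held 4, 7 and 6 CpG pairs, and the high-yield stretches 2 and 0.

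Across the autosomes the median DMC1 value was 56.0 RPM and the median H3K4me3 value 0.879 RPM. The median yield was 5.99 (95% interval of the median across sites 5.96 to 6.02), or 63.4 RPM of DMC1 for each RPM of H3K4me3. Since the denominators of the RPM values are not stated, that level has no meaning of its own and only differences between sites are read below. The central 80% of sites ran from 4.46 to 7.58, an 8.72-fold range in the ratio, and the extremes were 0.11 and 10.32. For comparison the same share of sites spanned 10.2-fold in DMC1 (18.9 to 193 RPM) and 5.13-fold in H3K4me3 (0.407 to 2.09 RPM). Dividing by H3K4me3 thus took away little of the spread: the standard deviation was 1.30 for log2 DMC1 and 1.23 for the yield. All DMC1 values were whole multiples of 0.246 RPM (within 0.01 of a step). If 1 step is 1 read, which the authors do not state, an autosomal site held a median of 228 reads (12 to 4425), and the median counting error of log2 DMC1 was 0.0955, the largest 0.42. H3K4me3 lay on a step of 0.000128 RPM, far too fine to be 1 read, so its depth is unknown and its share in the spread of the yield could not be measured.

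Among the listed sites, those with more H3K4me3 had more DMC1, less than in proportion by least squares. The list is one of DMC1 sites, and how that selection bears on the slope was not tested. The slope of log2 DMC1 on log2 H3K4me3 was 0.60 (SE 0.0135 with sites taken as independent), so that doubling H3K4me3 went with 1.52-fold more DMC1. H3K4me3 accounted for 18.6% of the variance of log2 DMC1 (Spearman's rho 0.43 over 8744 sites). Every autosome by itself gave a slope below 1, from 0.34 on chromosome 15 to 0.89 on chromosome 18, with a median of 0.62. Error in H3K4me3 lowers this slope. The standardised major axis, which treats both columns alike, gave 1.40, above 1 on each of the 19 autosomes (1.198 to 1.57). That slope is the ratio of the standard deviations, 1.30 for log2 DMC1 and 0.93 for log2 H3K4me3. How closely the columns are related does not enter it, so a value above 1 says only that log2 DMC1 spread more. Whether DMC1 lagged behind H3K4me3 or outran it could therefore not be decided from these lines. Against the same Ewsr1 CKO H3K4me3 values, the least squares slope was 0.74 (SE 0.0137) for B6 DMC1 and 0.89 (SE 0.0156) for Prdm9 heterozygote DMC1 at the 8743 sites above 0. Their rho values were 0.49 and 0.53. These slopes share the H3K4me3 column and were not tested against each other. Of the 3, DMC1 of the Ewsr1 CKO had the lowest slope and rho, although the H3K4me3 came from its own genotype.

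**Figure D1:**
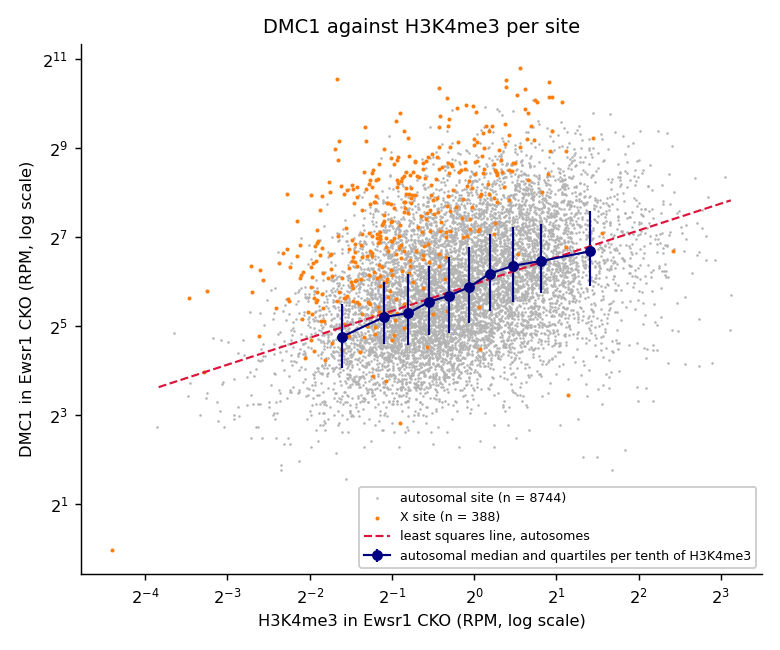
DMC1 (vertical, RPM, log scale) against H3K4me3 (horizontal, RPM, log scale) in the Ewsr1 CKO, one point per site, with 8744 autosomal sites in grey and 388 X sites in orange. Blue points are the medians of autosomal sites in deciles of H3K4me3 with their quartiles, and the dashed line is the least squares fit. The blue points climb from 27.3 to 103 RPM and flatten at the right, and most X sites lie above the line.

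The rise flattened at the top of the H3K4me3 range. From the lowest to the highest decile of sites, median H3K4me3 went from 0.329 to 2.66 RPM (8.08-fold) and median DMC1 from 27.3 to 103 RPM (3.78-fold). The median yield passed from 6.52 in the lowest decile through 5.99 in the fifth to 5.85 in the eighth, 5.69 in the ninth and 5.19 in the highest. Between the medians of the lowest and the fifth decile, DMC1 gained 0.71 log2 units per log2 unit of H3K4me3. Between the fifth and the eighth the gain was 0.86, and between the eighth and the highest 0.35, so the gain was not lower at each step. The slope was 0.69 (SE 0.032) among sites up to the median H3K4me3 and 0.39 (SE 0.031) above it, a change of −0.30. This change was negative on 16 of 19 autosomes, but it was −0.07 without the highest decile of sites and so rested on that decile. H3K4me3 enters both axes where the yield is set against it, and only the horizontal axis in these slopes. When it was taken instead from the H3K4me3 site list, over the 4884 autosomal sites that overlap exactly 1 listed H3K4me3 site, the change was −0.17, against −0.87 at the same sites with H3K4me3 of the DMC1 list. The 2 H3K4me3 values had a rho of 0.81 there. The direction was the same and the size differed with the list that gave H3K4me3.

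Some sites with much H3K4me3 held hardly any DMC1. Among the 4372 sites with H3K4me3 at or above the median, the 5 lowest yields all lay on chromosomes 7 and 2, no more than 0.42 Mb before the final site listed there. Low yield with high H3K4me3 was also found far from the distal end, as at the sites with the Gm35933 and Gm34557 promoters, 26.5 and 65.3 Mb before the final site of their chromosomes. On chromosome 7 at 144853993 to 144856208, 6.29 kb from a start of Fgf4, which encodes a growth factor of the early embryo, DMC1 was 3.44 RPM and H3K4me3 3.19 RPM (yield 0.11). At 145273584 to 145276142, 9.15 kb from Tpcn2, a lysosomal cation channel gene, they were 4.66 and 3.58 RPM (0.38). At 144920906 to 144922538 6.62 kb from LTO1, they were 4.17 and 2.504 RPM (0.74). On chromosome 2 the sites were the one with the Rgs19 start (181690293 to 181692470) and the one at 181811171 to 181813483, 16.0 kb from Myt1, a zinc finger factor gene of neural cells, with 10.1 and 4.53 RPM (1.15). With 14 to 41 reads each if 1 step is 1 read, their counting error was 0.39 to 0.23 on the log2 scale, small beside their distance from the median of 5.99. B6 DMC1 at these 5 sites was 11.1 to 33.4 RPM, or 1.97 to 2.88 on the log2 scale over the same H3K4me3.

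The 5 highest yields in the same set were at sites 33.1 to 451 kb from the nearest listed gene start. These 5 sites were picked by their yield, with H3K4me3 at or above its median, so their DMC1 was bound to be high. On chromosome 15 at 13737490 to 13739937, the farthest of them from a start, DMC1 was 977 RPM and H3K4me3 1.10 RPM (yield 9.80). A pair on chromosome 16, at 86241217 to 86244009 and 66904542 to 66907695, had 938 and 910 RPM of DMC1 for 1.22 and 1.23 RPM of H3K4me3 (9.59 and 9.53). On chromosome 5 at 71870525 to 71873807, 172 kb from the GABA receptor gene Gabrb1, the values were 861.5 and 1.27 RPM (9.41). On chromosome 17 at 40485384 to 40488490, 33.1 kb from Esp8, they were 916 and 1.38 RPM (9.37). The strongest autosomal DMC1 site, on chromosome 1 at 68487445 to 68490678 619 kb from the start of Erbb4, a neuregulin receptor gene, held 1086 RPM with 1.65 RPM of H3K4me3 (9.37). B6 DMC1 was high at all 6 of these sites, from 627 to 1213 RPM.

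Sites with the most H3K4me3 were not the strongest in DMC1. The last listed sites of chromosomes 19 (61151791 to 61154940) and 10 (130542171 to 130544985) had the highest autosomal H3K4me3, 8.75 and 8.67 RPM, with 52.0 and 30.4 RPM of DMC1 (yields 2.57 and 1.81). Neither overlapped a site of the H3K4me3 list. The next, on chromosome 6 at 140589955 to 140593079, 31.1 kb from Aebp2, a Polycomb cofactor gene, had 8.27 RPM of H3K4me3 and 325 RPM of DMC1 (5.30). Conversely, among sites in the top quartile group of DMC1, the 5 with the least H3K4me3 (0.233 to 0.290 RPM) had 113 to 214 RPM of DMC1. These 5 sites had high yields by that choice, 8.81 to 9.53. They included chromosome 19 at 51181556 to 51184177 and 48898793 to 48901138, whose nearest listed starts are those of Sorcs1 and Sorcs3 (504 and 694 kb away), sister genes of neuronal sorting receptors, and chromosome 3 at 141913233 to 141916043, 16.8 kb from Bmpr1b, a BMP receptor gene. None of the 5 overlapped a listed H3K4me3 site. Sites of median yield with both values high were found on chromosomes 12 (29438315 to 29441078; 197 and 3.11 RPM), 9 (42236706 to 42239312; 148 and 2.33 RPM) and 7 (79735677 to 79738620; 192 and 3.04 RPM). The chromosome 9 site had 205 RPM of DMC1 in B6 and 0.247 RPM in Prdm9 heterozygotes, while the chromosome 12 and 7 sites had 41.7 and 43.9 RPM in the heterozygotes.

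Wider sites had a higher yield. The narrowest decile (1008 to 1912 bp) had a median of 17.4 RPM of DMC1 and 0.518 RPM of H3K4me3, and the widest decile (2925 to 4589 bp) 148 and 1.40 RPM. DMC1 thus differed 8.47-fold between them and H3K4me3 2.71-fold, and the median yield was 5.07 and 6.70, a difference of 1.63. Each step from one decile to the next was upward. Width had a rho of 0.66 with DMC1, 0.40 with H3K4me3 and 0.39 with the yield. Within each quartile group of H3K4me3 the widest quintile had a higher median yield than the narrowest, by 1.65 to 2.04. The sign turned when DMC1 was held fixed: among sites of like DMC1, the widest decile had more H3K4me3, and the yield so adjusted was 0.51 lower than in the narrowest. The interval is that of the DMC1 list and its width went with DMC1 in B6 as well (rho 0.69). How the widths were set is not given in the sources used here, so width cannot be told apart from DMC1 strength.

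**Figure D2:**
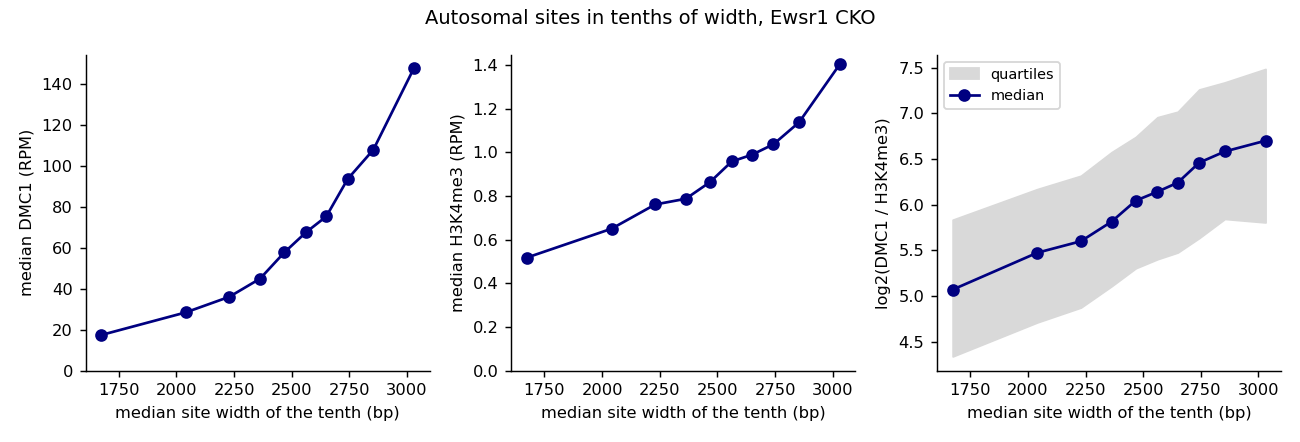
Autosomal sites in deciles of width (horizontal, median width in bp): median DMC1 (left, RPM), median H3K4me3 (middle, RPM) and the log2 yield with its quartiles (right). DMC1 goes from 17.4 to 148 RPM and H3K4me3 from 0.518 to 1.40 RPM, and the median yield climbs from 5.07 to 6.70.

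At the extremes of width single sites varied widely. The widest, on chromosome 4 at 32709054 to 32713643 (4589 bp), had 134 RPM of DMC1 and 1.26 RPM of H3K4me3 (yield 6.74). The next, on chromosome 16 at 27450373 to 27454711 (4338 bp) and chromosome 14 at 107672251 to 107676348 (4097 bp), reached 8.76 and 7.68. The narrowest were on chromosome 1 at 53339648 to 53340656 (16.2 and 0.228 RPM, yield 6.15) and 86345324 to 86346332 (9.82 and 0.323 RPM, 4.93), and a site of 1010 bp on chromosome 18 (7.61 and 0.187 RPM, 5.35). One of these narrow sites thus lay above the autosomal median yield of 5.99. The slope on H3K4me3 was smaller within each quintile of width (0.18 to 0.37) than over all sites (0.60).

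Along the autosomes the yield declined from the proximal end, where mouse centromeres lie, towards the distal end. The median yield was 6.58 in the first decile of the listed span, 6.05 in the fifth and 5.49 in the last. Both columns moved: from the first to the last decile median DMC1 went from 70.5 to 42.2 RPM and median H3K4me3 from 0.719 to 0.996 RPM. Spearman's rho of the yield with relative position was −0.20 over all sites, and it was below 0 on 15 of 19 autosomes and reached 0.40 on chromosome 16. On each autosome the last 10 Mb up to its final listed site were taken as distal, and these 641 sites had a median yield of 5.50 (quartiles 4.47 to 6.44), against 5.99 for the 7444 sites over 10 Mb from either end, a difference of −0.48. The difference was −1.17 with a limit of 5 Mb and −0.18 without the last 2.5 Mb, so it rested mainly on the very ends. In the last 2.5 Mb, 197 sites had a median of 24.6 RPM of DMC1, 1.24 RPM of H3K4me3 and a yield of 4.41. From 2.5 to 5 Mb the median yield was 5.36, and from 5 to 10 Mb it was 5.97. The last 2.5 Mb lay below the middle of the same chromosome on 16 of 19 autosomes, with −3.75 on chromosome 7, and above it on chromosomes 4, 13 and 17.

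**Figure D3:**
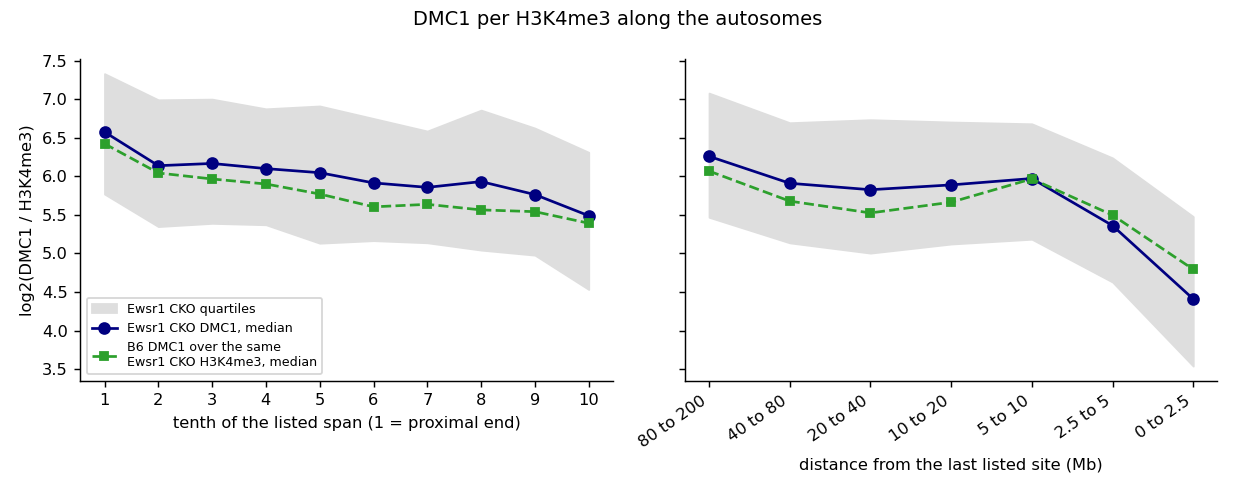
Median log2 yield along the autosomes (vertical), by decile of the listed span of each chromosome (left) and by distance from the last listed site in Mb (right), with Ewsr1 CKO quartiles in grey. Green squares put B6 DMC1 over the same Ewsr1 CKO H3K4me3. The Ewsr1 CKO line goes from 6.58 to 5.49 on the left, and on the right it drops to 4.41 in the last 2.5 Mb, where the B6 line drops to 4.79.

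B6 DMC1 over the same Ewsr1 CKO H3K4me3 had a like course, 6.42 in the first decile of the span, 5.39 in the last and 4.79 in the last 2.5 Mb. The distal slope on H3K4me3 was lower: 0.21 (SE 0.053) in the distal 10 Mb, against 0.64 (SE 0.014) in the middle and 0.78 (SE 0.053) within 10 Mb of the first listed site. Within the distal sites it was 0.52 (SE 0.133) up to their median H3K4me3 and −0.0029 (SE 0.118) above it, so it was flat in the upper part of the range. Of the 19 last listed sites, 18 lay below the autosomal median yield, 12 of them below its 10th percentile, and 7 had H3K4me3 above its 90th percentile. The exception, on chromosome 4 at 155524457 to 155527521, had 164 RPM of DMC1 and a yield of 7.10. Of the 19 first listed sites, 8 lay below the median. Chromosome 17 stood apart there, where the first site (3081051 to 3082895) had 17.2 RPM of DMC1 and 6.66 RPM of H3K4me3 (yield 1.37).

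Near the proximal end the yield was higher. The 659 sites within 10 Mb of the first listed site had a median of 6.47 (quartiles 5.66 to 7.22), 0.48 above the middle, with 67.3 RPM of DMC1 and 0.752 RPM of H3K4me3 against 56.5 and 0.886 RPM. Proximal sites exceeded the middle of their chromosome on 15 of 19 autosomes, most on chromosome 9 (7.46 against 5.60), and lay below it on chromosomes 16, 17, 18 and 19 (−0.80, −0.18, −0.10 and −0.62). Whole-chromosome medians ranged from 5.58 on chromosome 11 and 5.64 on chromosome 9 to 6.43 on chromosome 3 and 6.52 on chromosome 18. On every autosome the quartiles enclosed the overall median, and those of chromosome 11 (4.87 to 6.33) and chromosome 18 (5.83 to 7.27) overlapped.

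The yield was lowest at gene starts and was higher with distance from them. This was computed for the 8415 sites on autosomes with listed starts, since the promoter table holds no entries for chromosome 18 (329 sites). The 278 sites centred within 2 kb of a start had medians of 42.8 RPM of DMC1, 1.22 RPM of H3K4me3 and a yield of 5.18 (quartiles 4.45 to 5.92). The 6814 sites over 10 kb away had 57.2 and 0.842 RPM and a yield of 6.06, so the difference was −0.88. At like H3K4me3 it was −0.67. Within 2 kb the order was not strict (5.23 below 1 kb and 5.12 from 1 to 2 kb). Further out the yield went on climbing, to 5.93 at 30 to 100 kb, 6.33 at 100 to 300 kb and 6.94 (quartiles 6.16 to 7.68) at the 837 sites over 300 kb from any listed start. There DMC1 was 87.4 RPM and H3K4me3 0.692 RPM. In each of the 10 deciles of H3K4me3, sites over 100 kb from a start had a higher median yield than sites within 10 kb, by 0.59 to 1.19. The slopes were 0.74 (SE 0.028) over 100 kb and 0.55 (SE 0.030) within 10 kb. In the highest decile of H3K4me3 the medians were 5.78 and 4.82, both lower than in any other decile of their own class.

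**Figure D4:**
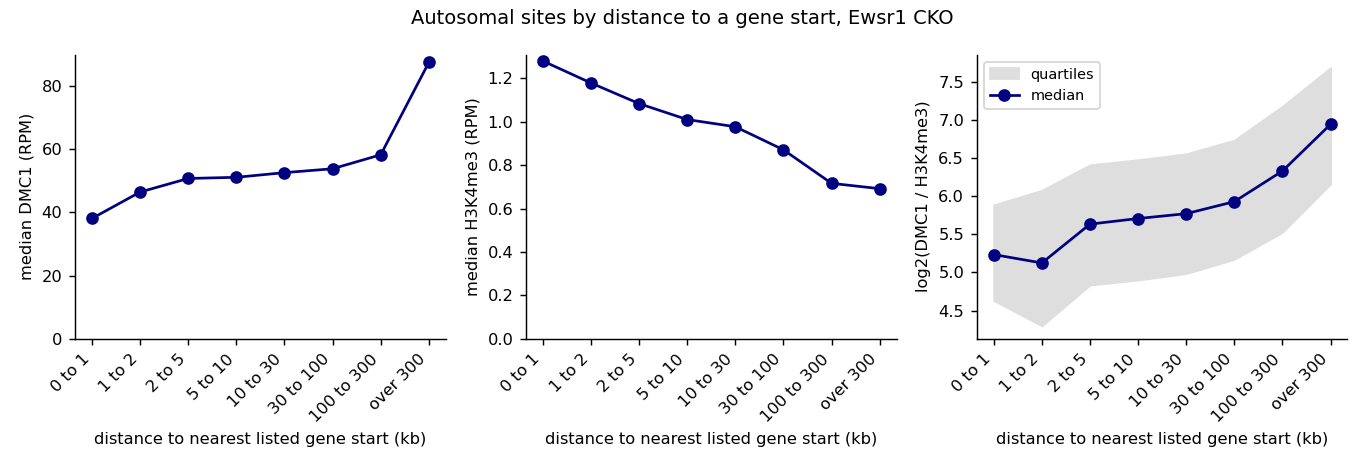
Autosomal sites (chromosome 18 left out) by distance from the site's centre to the nearest listed gene start (horizontal, kb): median DMC1 (left, RPM), median H3K4me3 (middle, RPM) and log2 yield with quartiles (right). H3K4me3 declines from 1.28 to 0.692 RPM with distance while DMC1 goes from 38.1 to 87.4 RPM, and the median yield from 5.23 to 6.94.

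Gene distance and position overlapped only in part. Distal sites lay nearer to gene starts (median 28.55 kb) than sites of the middle (37.4 kb) or the proximal end (38.9 kb). Within each of these regions the order by gene distance held. In the middle the median yield was 5.60 within 10 kb and 6.60 over 100 kb, at the distal end 5.19 and 6.03, and at the proximal end 5.88 and 6.89. Within each gene distance class, the distal end was the lowest and the proximal end the highest. Without the sites within 2 kb of a start the distal difference was −0.46, against −0.48 with them.

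Promoters that lie inside hotspots were mostly poor in CpG. Of 129 listed promoters (300 bases each) wholly inside an autosomal site, 8 (6.20%) held 10 or more CpG pairs on the given strand, against 44.0% of all 31396 listed autosomal promoters. CpG reads the same on either strand. Sites with a CpG-rich promoter (8) had medians of 79.2 RPM of DMC1 and 3.08 RPM of H3K4me3 (yield 4.90). The 110 with a CpG-poor one had 43.5 and 1.25 RPM (5.29), and the 8297 sites with no whole listed promoter 55.7 and 0.881 RPM (5.98). Relative to sites of like H3K4me3 the order of the first 2 sets turned round, with medians of −0.37 for the CpG-rich and −0.51 for the CpG-poor. Among the 118 sites with a promoter, its G and C content had a rho of −0.44 with the yield, 0.54 with H3K4me3 and 0.08 with DMC1. The tercile with the lowest content (26 to 44.3%) had a median yield of 5.81 and the tercile with the highest (50.3 to 66.7%) 4.94. Whole-site sequence was not used here.

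The yield was more alike among neighbouring sites than either column it is made of. Over adjacent sites less than 1 Mb apart, the yields of neighbours had a rho of 0.46. Over all pairs of sites on the same autosome less than 0.1 Mb apart (3669 pairs), Pearson's r was 0.44 for the yield, 0.23 for log2 H3K4me3 and 0.14 for log2 DMC1. At 1 to 2 Mb the 3 values were 0.33, 0.13 and 0.09, at 5 to 10 Mb 0.12, 0.04 and 0.03, and at 20 to 40 Mb 0.03, 0.006 and 0.01. Windows of 5 Mb with at least 10 sites (439 windows) accounted for 35.3% of the variance of the yield by the intraclass correlation, 14.7% of that of log2 H3K4me3, 8.97% of log2 DMC1 and 0.56% of log2 width. The same H3K4me3 column under B6 DMC1 gave r values of 0.32 below 0.1 Mb and 0.23 at 1 to 2 Mb, lower than the yield. Further out the order turned, with 0.085 against 0.074 for the yield at 10 to 20 Mb and 0.041 against 0.029 at 20 to 40 Mb. These coefficients are across sites of shared libraries and are given as a description.

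**Figure D5:**
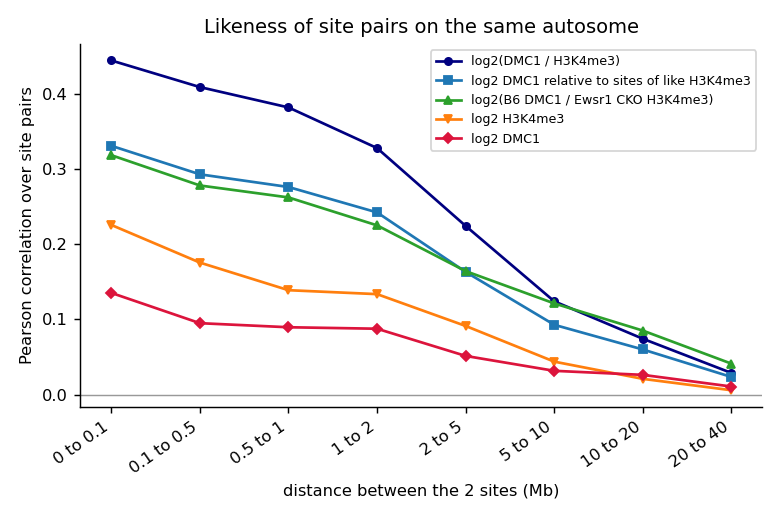
Pearson correlation over pairs of sites on the same autosome (vertical) by the distance between them in Mb (horizontal), for the yield, for DMC1 relative to sites of like H3K4me3, for B6 DMC1 over the same H3K4me3, and for each Ewsr1 CKO column alone. The yield starts at 0.44, H3K4me3 at 0.23 and DMC1 at 0.14, and the yield lies above both columns at every distance up to 40 Mb.

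Window medians of the yield ran from 2.33 to 8.14, and the central 80% of windows from 5.08 to 7.09. The lowest were the last part of chromosome 2 from 180 Mb on (13 sites, medians 12.3 RPM of DMC1 and 2.59 RPM of H3K4me3) and chromosome 7 from 140 to 145 Mb (19 sites, 14.2 and 2.14 RPM, yield 3.49). The third lowest was chromosome 4 from 135 to 140 Mb, where DMC1 was not low (15 sites, 75.4 RPM) and H3K4me3 was high (3.70 RPM, yield 3.95). The highest were chromosome 16 from 70 to 75 Mb (13 sites, 137 and 0.545 RPM, yield 8.14) and chromosome 19 from 50 to 55 Mb (14 sites, 122 and 0.453 RPM, 7.999). Window yields were lower where more genes start, with a rho of −0.70 with the number of listed gene starts over 421 windows outside chromosome 18. The quartile group of windows with the fewest starts (2 to 34) had a median yield of 6.79, 70.6 RPM of DMC1 and 0.674 RPM of H3K4me3. The quartile group with the most (93 to 211) had 5.37, 47.0 and 1.18 RPM.

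H3K36me3, a mark that PRDM9 also places, went with a higher yield at like H3K4me3. It could be read at the 4884 sites that overlap exactly 1 listed H3K4me3 site. The values cover the whole mark, whichever enzyme placed it. Sites were split into quartile groups by H3K36me3 inside each quartile group of H3K4me3, so that median H3K4me3 was 1.23 RPM throughout. From the lowest to the highest H3K36me3 quartile group, median H3K36me3 was 0.746, 1.27, 1.73 and 2.93 RPM, median DMC1 47.0, 71.0, 100.3 and 99.1 RPM, and the median yield 5.24, 5.81, 6.24 and 6.19. The top quartile group exceeded the bottom by 0.94, and did so within each quartile group of H3K4me3, with 6.27 against 5.46 in the lowest and 5.81 against 4.78 in the highest. Median H3K4me3 still differed a little inside those, 0.817 against 0.739 RPM in the lowest and 2.53 against 2.15 RPM in the highest. H3K36me3 summed over a longer interval is larger. Per kb of the listed interval the 4 medians were 5.47, 5.97, 6.10 and 5.89, a difference of 0.43 between top and bottom, with the highest value in the third of the 4. The 3854 sites without a listed H3K4me3 site had a yield of 6.17, with 39.4 RPM of DMC1 and 0.547 RPM of H3K4me3. The 4890 sites with one had 5.84, with 74.4 and 1.23 RPM. Relative to sites of like H3K4me3 this order turned round and nearly vanished, with medians of −0.03 without a listed site and 0.03 with one.

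H3K4me3, width, distance to a gene start, position and chromosome were entered in turn to describe DMC1, and H3K36me3 and the 5 Mb window were not entered. In least squares fits of log2 DMC1 over 8415 sites, H3K4me3 alone accounted for 18.5% of the variance, and its square added 0.65 percentage points. Width added 27.1, distance to a gene start 2.29, position along the chromosome 1.01 and the chromosome itself 0.69, which brought the sum to 50.3%. The order of entry sets these shares, and width accounted for 43.7% when entered alone. Since width is that of the DMC1 list's own intervals and cannot be told apart from DMC1 strength, the sum does not measure how far DMC1 follows from other features.

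X sites had a far higher yield than autosomal ones. The 388 X sites had a median of 8.24 (quartiles 7.42 to 9.03), 2.26 above the autosomes or 4.78-fold in the ratio, and 272 of them (70.1%) exceeded the 90th percentile of autosomal sites. Only 18 lay below the autosomal median. Higher DMC1 (median 162 RPM) and lower H3K4me3 (0.526 RPM) went with this, the medians differing by 1.54 and −0.74 on the log2 scale. The least squares slope on the X was 0.98 (SE 0.072), with rho 0.59. The X is present as a single copy in males, and no correction for copy number was applied here.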

How the data were processed

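Spermatocytes of 14-day-old mice were profiled by ChIP-seq. Per the labels' protocols, chromatin was sonicated for DMC1 and cut with micrococcal nuclease for H3K4me3 and H3K36me3. BWA 0.5.10, Trimmomatic 0.32 and build mm10 are named in the submitters' processing notes. The site caller, duplicate handling, replicate merging and the RPM denominator are not given in the sources used here. The authors deposited RPM values (per the file headers), 1 column per group, in a DMC1 site list and an H3K4me3 site list (5567 distinct sites after averaging repeated intervals). Columns were matched to groups by name. Another 4 columns matched no sample and were not used.

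The yield was log2(DMC1 RPM / H3K4me3 RPM), with no pseudocount and no filter. Intervals of medians came from order statistics at 95%, taking sites as independent. Residuals at like H3K4me3 (or DMC1) are relative to the median of the same 1 of 20 equal groups of sites. Chromosome ends were the first and last listed sites. Gene starts came from 32851 RefSeq promoters of 27025 genes on GRCm38.p6, the assembly behind mm10. Coordinates are as the files give them. The table is not complete, so distances are to the nearest listed start. Sites named followed a rule: highest and lowest yield with H3K4me3 at or above its median (5 each), highest DMC1, highest H3K4me3, widest and narrowest (3 each), least H3K4me3 in the top quartile group of DMC1 (5), and median yield with both columns in the top quartile group (3). The promoters, end sites and windows named were chosen after their values were seen. Members and lists were chosen with earlier results of these data known. Functions were tested on simulated data. Computation used Python 3.11.15 with scipy 1.17.1, numpy 2.4.6 and pandas 2.3.3, and plots matplotlib 3.10.9.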

Additional observations from a re-analysis of the deposited data

How the results depend on the processing

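The width difference reversed at fixed DMC1, and the slope lay below 1 by least squares and above 1 by the standardised major axis. The other results kept their sign under the alternatives run. Of the recomputed values, 19 stayed inside the interval of the reported one, 26 moved outside it with the same sign and 1 reversed. With 0.1 RPM added to both columns, the median yield (5.99) was 5.80, the slope (0.60) 0.67, the change of slope (−0.30) −0.44, the width difference (1.63) 1.81 and the rank correlation of adjacent sites (0.46) 0.43. Without the lower quartile of H3K4me3 they were 5.85, 0.53, −0.50, 2.03 and 0.42, and the X difference (2.26) was 2.49. With the X included the median yield was 6.05 and the slope 0.56. The standardised major axis slope was 1.40, and H3K4me3 of the H3K4me3 list gave a slope of 0.56 and a change of slope of −0.17. At the same sites the DMC1 list gave a change of −0.87, and without the top decile of H3K4me3, over all sites, it was −0.069. At fixed H3K4me3 the width difference was 2.24 and the gene start difference (−0.88) −0.67. At fixed DMC1 the width difference reversed to −0.51, and the distal (−0.48), proximal (0.48) and gene start differences were −0.26, 0.29 and −0.60. The distal difference was −1.17 with a limit of 5 Mb and −0.18 without the last 2.5 Mb. Per kb, the H3K36me3 difference (0.94) was 0.43. The results for adjacent sites, H3K36me3 and the X with their settings were chosen after seeing the data. So were the settings at fixed DMC1, without the last 2.5 Mb, at the same sites, without 1 autosome and, for the proximal difference, without sites within 2 kb of a gene start. Leaving out any 1 autosome moved the distal difference between −0.62 and −0.40 and the proximal one between 0.43 and 0.60. The cause of these shifts was not tested.

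No paired analysis was possible because each group has a single deposited value per site, which also left no replicate to leave out. The depth of H3K4me3 is unknown, so error in the denominator of the yield is not measured, and a low H3K4me3 value can by itself give a high yield.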
